A study of Mus musculus with 19 samples.

Results

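Amino acids for milk protein enter the mammary epithelium through membrane carriers of several gene families, and 6 of these families were followed here in total RNA-seq of mouse mammary tissue. All symbols of the Slc1a, Slc3a, Slc7a, Slc36a, Slc38a and Slc43a families in the count files were taken, 42 symbols without the 2 opposite-strand entries, and 37 of them reached 10 reads when the 19 libraries were added up. They are 37 of 24421 genes in the files, 18216 of which reach the same minimum. The 37 members comprise 7 genes of Slc1a, 2 of Slc3a, 12 of Slc7a, 3 of Slc36a, 10 of Slc38a and 3 of Slc43a. The 5 symbols under the minimum were Slc7a9 and Slc7a12 without a read, Slc38a8 with 5, Slc7a14 with 6 and Slc36a3 with 7 reads, and these were not followed further. Of the 37 members, 37 entered the tests of WT and ΔSE tissue and 36 those with the single-enhancer lines.

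Tissue came from mice labelled C57BL/6 (C57BL/6N in the methods) at day 6 (p6) or day 18 (p18) of pregnancy. WT tissue gave 3 libraries at each stage. ΔSE tissue, labelled Enhancer-delS1-4, lacks the enhancers S1 to S4 of a super-enhancer at the casein locus in all cells of the mouse, and gave 4 libraries at each stage. Only mice homozygous for a CRISPR/Cas9 deletion were used, and ΔSE dams did not nurse their pups. A second set of labels holds 2 libraries of delCsn3-PE, without the proximal enhancer of Csn3, and 3 of delCsn1s2b-E, without an enhancer of Csn1s2b. Both lines are labelled p18, but their extraction notes name WT tissue of lactation, so that their stage is uncertain, and their set holds no WT tissue. The casein genes nearest to the deletions were checked first. Normalized CPM of Csn3 was 50.1 to 146 in ΔSE and 276 and 1358 in delCsn3-PE, against 5168 to 6707 in WT at p18. Csn1s2b was at 2.62 to 15.7 in ΔSE and 27.8 to 51.5 in delCsn1s2b-E, against 42.7 to 217 in WT, so that the last 2 ranges overlapped.

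Levels are normalized CPM, read counts scaled to library size with TMM factors over all 19 libraries. They are divided by transcript length (per kilobase) wherever 2 genes are compared. Fold changes, their standard errors (SE) and Benjamini-Hochberg adjusted p-values over all genes come from edgeR's quasi-likelihood test, and a gene is called where the adjusted p is under 0.05. Reads in genes were 12335272 to 20525175 per library in WT and ΔSE and 26848053 to 30329601 in the single-enhancer lines. Of these reads, 21.7 to 42.9% fell on Rn45s, a precursor of ribosomal RNA, in the first set and 0.0765 to 0.924% in the second. The 7 luminal epithelial markers summed to 475 to 1482 normalized CPM across WT and ΔSE libraries. Transcripts of skeletal muscle, a neighbour of the gland, were uneven. The sum over 8 muscle markers was 1001 to 2257 normalized CPM in WT at p6, 6.13, 969 and 1430 in the 3 WT libraries at p18, 2394 and 3571 in ΔSE p6 replicates 2 and 4, 45.9 and 112 in the other two ΔSE p6 replicates, and 8.52 to 16.8 in ΔSE at p18. WT p6 replicate 2 also stood apart from the other WT p6 libraries, with Csn2 at 30.8 normalized CPM against 1045 and 1297. It was within the range of ΔSE at p6, which was 12.0 to 50.2. Libraries are of whole tissue, where fewer cells of a type and less RNA per cell cannot be told apart.

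As background, amino acid carriers fall into a few working types. Concentrative carriers such as Slc38a2 and the glutamate carriers of the Slc1a family use the sodium gradient to accumulate amino acids. Exchangers such as Slc7a5 with its heavy chain Slc3a2 trade one amino acid for another, and so bring in leucine and other large essential amino acids at the expense of glutamine that the first type has taken up. Uniporters such as Slc7a1 let arginine and lysine follow their gradient and the membrane potential. Caseins need all of these amino acids, and Slc7a5, Slc3a2, Slc7a1, Slc38a2, Slc1a5 and Slc1a1 are the carriers usually named for uptake by the lactating gland. Many carrier genes are also known to respond to amino acid shortage through the factor ATF4.

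Promoter sequences of 27 of the 37 members were found in the RefSeq set for GRCm38.p6 (37 promoters, each from 250 bases before to 50 after a start site). Those of Slc1a5, Slc7a2, Slc7a3, Slc7a4, Slc7a5, Slc7a13, Slc36a2, Slc38a1, Slc38a3 and Slc43a3 were not in the set and could not be searched. Both strands were searched for 2 sequences. TTCNNNGAA is the motif of STAT5, the factor that prolactin activates at the casein enhancers, and TGATGCAA is a sequence bound by ATF4 together with a C/EBP factor. The first was in 4 of these 37 promoters, from 4 members, Slc1a3, Slc7a1, Slc7a11 and Slc38a9, and in 8.30% of all 32851 promoters. The second was in 4 of the 37, from 3 members, Slc1a4, Slc7a7 and Slc7a11, and in 0.895% of all promoters. The 2 sequences did not overlap in any of them. All matches are shown, so that the letters can be read beside the values of these 6 carriers. They are printed along the gene's strand with 30 bases on each side and the match in capitals, where TTGCATCA is TGATGCAA read on the other strand. A match describes the letters and is not a measured binding site.
Slc7a1 (chr5:148392923-148392991, minus strand): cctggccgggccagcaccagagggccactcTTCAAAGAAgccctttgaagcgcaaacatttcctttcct
Slc1a3 (chr15:8710865-8710933, minus strand): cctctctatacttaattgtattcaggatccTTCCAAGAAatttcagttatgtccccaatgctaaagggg
Slc38a9 (chr13:112660660-112660728, plus strand): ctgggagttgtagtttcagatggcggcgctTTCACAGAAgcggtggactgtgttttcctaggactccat
Slc7a11 (chr3:50443758-50443826, minus strand): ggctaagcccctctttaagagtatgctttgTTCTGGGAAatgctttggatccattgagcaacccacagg
Slc7a11 (chr3:50443642-50443709, minus strand): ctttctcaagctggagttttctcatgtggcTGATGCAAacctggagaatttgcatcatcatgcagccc
Slc7a11 (chr3:50443623-50443690, minus strand): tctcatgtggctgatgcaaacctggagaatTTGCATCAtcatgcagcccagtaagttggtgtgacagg
Slc1a4 (chr11:20332680-20332747, minus strand): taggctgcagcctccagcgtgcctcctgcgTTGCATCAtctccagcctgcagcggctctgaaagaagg
Slc7a7 (chr14:54417908-54417975, minus strand): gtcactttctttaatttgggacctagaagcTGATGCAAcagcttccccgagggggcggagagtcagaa
The 2 matches of TGATGCAA in Slc7a11 begin 19 bases apart, counted from first base to first base, on opposite strands. Those in Slc1a4 and Slc7a7 begin within 4 bases of the start site.

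Between p6 and p18 the make-up of carrier mRNA in WT tissue turned from Slc1a5 to Slc7a5 and Slc38a2. Per kilobase of transcript, Slc1a5, the sodium-dependent exchanger of glutamine and other small neutral amino acids, held 33.5% ± 1.75 (SD, n = 3) of the members' summed level at p6 and 12.6% ± 0.73 at p18. Slc7a5, the light chain of the leucine exchanger LAT1, held 2.36% ± 0.68 at p6 and 14.4% ± 1.66 at p18. Slc38a2, a sodium-coupled importer of glutamine and alanine, held 7.76% ± 0.33 and 14.5% ± 0.84. The summed level itself was 297 ± 39.2 at p6 and 265 ± 28 at p18 (normalized CPM per kilobase), and the ranges of the libraries overlapped. The shares of ΔSE tissue were close by, with Slc1a5 at 33.5% ± 2.28 and 14.7% ± 2.11 (n = 4) and Slc7a5 at 2.70% ± 0.66 and 14.8% ± 4.04.

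**Figure D1:**
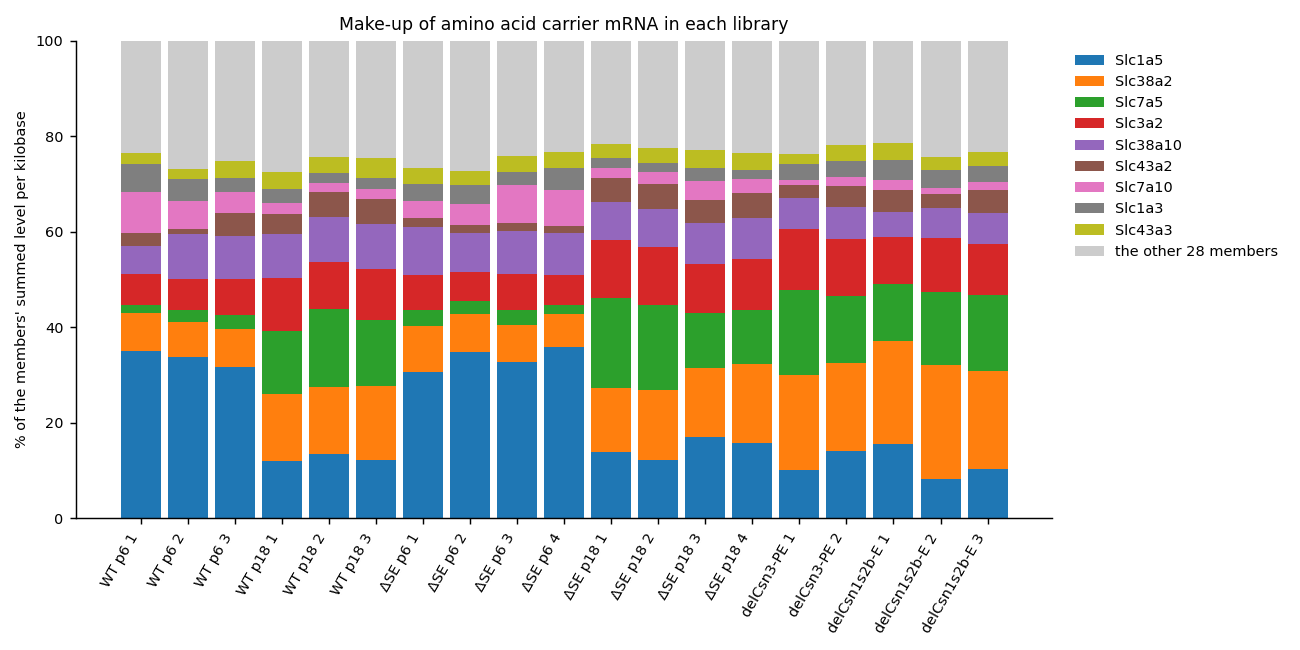
Share of each carrier in the members' summed level per kilobase (%), 1 bar for each of the 19 libraries, with the 9 carriers of the highest mean share in colour and the other 28 members in grey. Slc1a5 takes 30.7 to 35.8% of the bar in the p6 libraries and 8.18 to 17.0% in those labelled p18, where Slc7a5 and Slc38a2 are wider.

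The order of levels per kilobase changed in the same way. In WT tissue at p6 Slc1a5 led with 99.9 ± 18.3 normalized CPM per kilobase, followed at a distance by Slc38a10 (23.1), Slc38a2 (23.1) and Slc3a2 (20.5), which did not differ beyond their spread. At p18 Slc38a2 (38.4 ± 3.74), Slc7a5 (38.3 ± 8.65) and Slc1a5 (33.4 ± 5.56) stood together within their spread, with Slc3a2 (28 ± 1.28) just below. In ΔSE tissue at p18 the same 3 genes led with 38.3, 39.3 and 38.2 normalized CPM per kilobase.

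Of the 37 members, 7 were called higher and 8 lower at p18 than at p6 in WT tissue, where 29.6% of the 17844 genes tested were called (17.2% higher, 12.4% lower). In ΔSE tissue 11 were called higher and 10 lower, against 35.6% of all genes (17.3% higher, 18.3% lower). The libraries of the stages did not overlap for 16 members in WT (7 higher, 9 lower), beside 39.9% of all genes, and for 21 in ΔSE, beside 38.1%. The median log2 fold change of the members was -0.20 in WT and -0.01 in ΔSE, beside -0.05 and -0.07 over all genes, so that the members moved both ways. There were 7 genes called higher in both genotypes and 8 lower in both, 6 were called in ΔSE alone, 0 in WT alone and 16 in neither. No member had opposite calls. When counts were scaled to library totals the median of all genes moved to -0.42 in WT and -0.65 in ΔSE, and the calls became 3 higher and 8 lower in WT (4.28% and 20.5% of all genes) and 6 higher and 16 lower in ΔSE (3.52% and 44.7%). Scaling to library totals removed the calls of Slc3a2, Slc7a1, Slc7a7 and Slc38a2 in WT. In ΔSE it removed those of Slc1a1, Slc3a2, Slc7a7, Slc38a2 and Slc38a7. With 1 factor of unwanted variation estimated from the data, edgeR called 0 members in either genotype, beside 0.0448% of all genes in WT and 0% in ΔSE. An unadjusted p under 0.05 was then found for 6 members in WT and 5 in ΔSE, and the sign of 2 of the called members turned in WT (Slc3a2 and Slc7a1) and of 9 in ΔSE. DESeq2, fitted without such a factor, called 15 members in WT and 22 in ΔSE. Of all 17844 genes it called 3007 higher and 2831 lower in WT, and 3159 and 3520 in ΔSE.

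**Figure D2:**
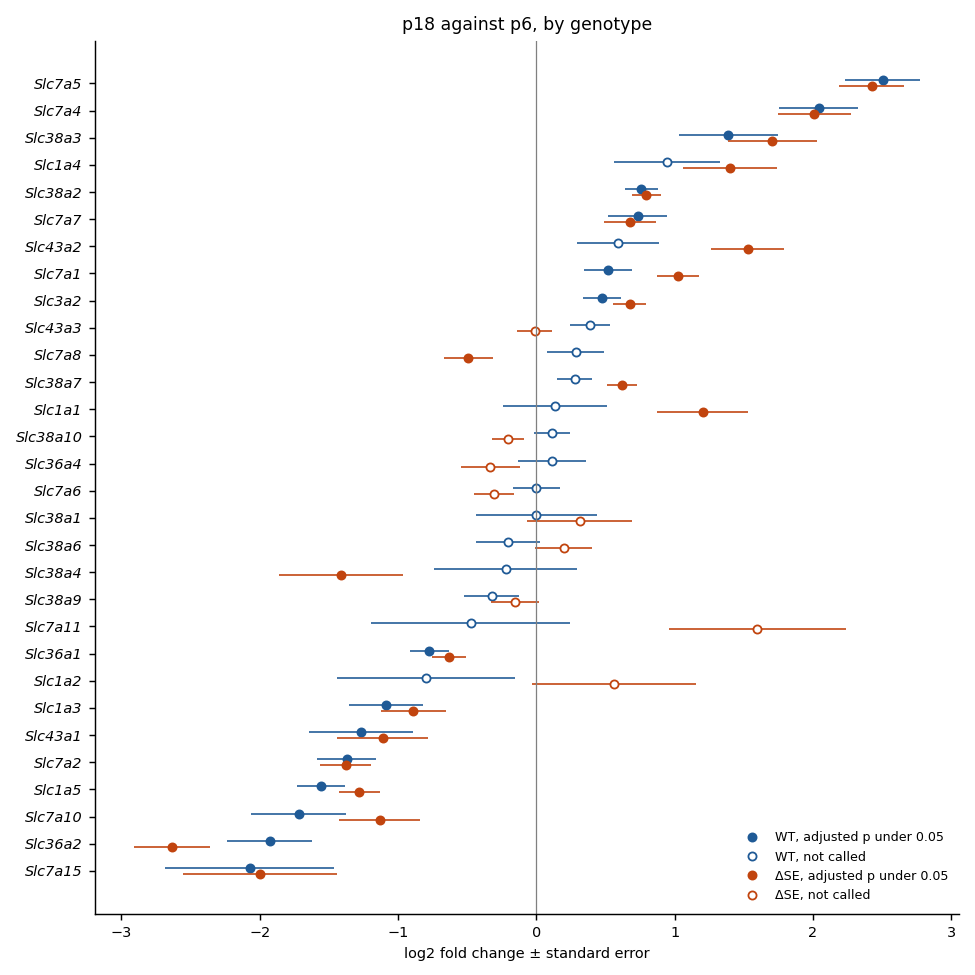
Log2 fold change of p18 against p6 with its standard error for the 30 members with a mean of at least 1 normalized CPM, in WT (blue) and ΔSE (red), with filled points for an adjusted p under 0.05 and open points for the others. Slc7a5 and Slc7a4 are farthest to the right and Slc36a2 and Slc7a15 farthest to the left in both genotypes.

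The LAT1 exchanger rose most. Slc7a5 (chr8:121881150-121907694) was at 18.9, 27.1 and 26.3 normalized CPM in the 3 WT libraries at p6 and at 113, 170 and 122 at p18. In ΔSE it was at 29.0, 27.3, 29.4 and 18.8 at p6 and at 192, 168, 101 and 92.8 at p18. Every p18 library thus stood above every p6 library in both genotypes, and the log2 fold change was 2.5 in WT (SE 0.27, adjusted p = 9.8e-06) and 2.42 in ΔSE (SE 0.23, adjusted p = 2.2e-06). Its heavy chain Slc3a2 (chr19:8706882-8723369), which carries the light chain to the membrane, was at 63.5, 53.7 and 56.3 normalized CPM in WT at p6 and at 76.6, 82.9 and 76.8 at p18. The ΔSE libraries had 50.9, 48.6, 59.8 and 53.1 at p6 and 101, 90.4, 73.1 and 71.0 at p18. The stages did not overlap, but the change was small, 0.47 (SE 0.14, adjusted p = 0.016) in WT and 0.67 (SE 0.12, adjusted p = 0.00044) in ΔSE, and scaling to library totals removed both calls. In WT the call of Slc3a2 was also lost without p6 replicate 2 or p18 replicate 2.

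The other light chains that pair with a heavy chain went different ways. Slc7a7, the light chain y+LAT1 that exchanges cationic for neutral amino acids, was at 7.67, 4.45 and 7.64 normalized CPM in WT at p6 and at 10.6, 11.7 and 9.89 at p18. It rose with a log2 fold change of 0.73 (SE 0.21, adjusted p = 0.016) in WT and 0.67 (SE 0.19, adjusted p = 0.011) in ΔSE, and it overlaps Oxa1l on the opposite strand. The WT call was lost without p6 replicate 2 or p18 replicate 2, and scaling to library totals removed the calls in both genotypes. Slc7a6, the second y+L light chain, was at 22.5, 18.3 and 19.7 normalized CPM at p6 and 23.1, 19.9 and 16.4 at p18 in WT and at 17.8 to 20.6 and 12.7 to 19.6 in ΔSE, and was called in neither genotype. Slc7a8, the light chain of LAT2, had 5.22, 7.86 and 5.30 normalized CPM at p6 and 8.68, 6.69 and 6.70 at p18 in WT, with a log2 fold change of 0.28 (SE 0.21, adjusted p = 0.33). In ΔSE tissue Slc7a8 fell from 7.54 to 11.2 at p6 to 6.02 to 6.94 at p18 (log2 fold change -0.49, SE 0.18, adjusted p = 0.043), a call that 7 of the 8 fits with 1 library left out did not keep.
Slc7a10, the small neutral amino acid exchanger Asc-1 that is also known from the surface of white fat cells, fell in both genotypes. It was at 55.5, 32.9 and 21.5 normalized CPM in WT at p6 and at 11.7, 10.9 and 10.1 at p18 (log2 fold change -1.72, SE 0.34, adjusted p = 0.0015). ΔSE tissue had 17.6, 25.3, 43 and 44.3 at p6 and 12.5, 13.1, 19.7 and 13.2 at p18, where the stages overlapped (-1.13, SE 0.29, adjusted p = 0.0069). Slc7a15 was low throughout, at 3.08, 0.931 and 3.87 normalized CPM in WT at p6 and 1.10, 0.260 and 0.479 at p18, and fell by 2.07 (SE 0.61, adjusted p = 0.017) on the log2 scale. This WT call was lost without p6 replicate 3, p18 replicate 2 or p18 replicate 3, and in ΔSE tissue Slc7a15 was 3.99-fold lower at p18 (log2 SE 0.55, adjusted p = 0.010). Slc7a11, the cystine and glutamate exchanger, was at 0.620 to 4.73 normalized CPM at p6 and 1.33 to 1.65 at p18 in WT. In ΔSE it was at 0.396 to 2.59 at p6 and 1.77 to 4.32 at p18 (log2 fold change 1.60), which overlapped. The main fit called Slc7a11 in neither genotype, and 4 alternatives, DESeq2 among them, called it in ΔSE. Slc3a1, the heavy chain of the cystine carrier of kidney, stayed at or under 1.38 normalized CPM in all 19 libraries, and Slc7a13 at or under 0.474.

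Ratios within a library do not depend on how libraries are scaled. The ratio of Slc7a5 to Slc3a2, both per kilobase, was 0.338 ± 0.0882 in WT at p6 and 1.36 ± 0.241 at p18 (n = 3 each), and 0.395 ± 0.0801 and 1.29 ± 0.252 in ΔSE (n = 4 each). With the longest coding transcripts as lengths (3517 bases for Slc7a5, 2813 for Slc3a2), the light chain moved from below to above its heavy chain in each genotype. The rise of the ratio does not depend on the lengths chosen, but its place above or below 1 does. The ratio of Slc7a5 to Slc1a5 went from 0.0713 ± 0.0235 to 1.14 ± 0.0637 in WT and from 0.0818 ± 0.0248 to 1.05 ± 0.417 in ΔSE. These ratios were chosen after the levels had been seen and are given without a test.

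**Figure D3:**
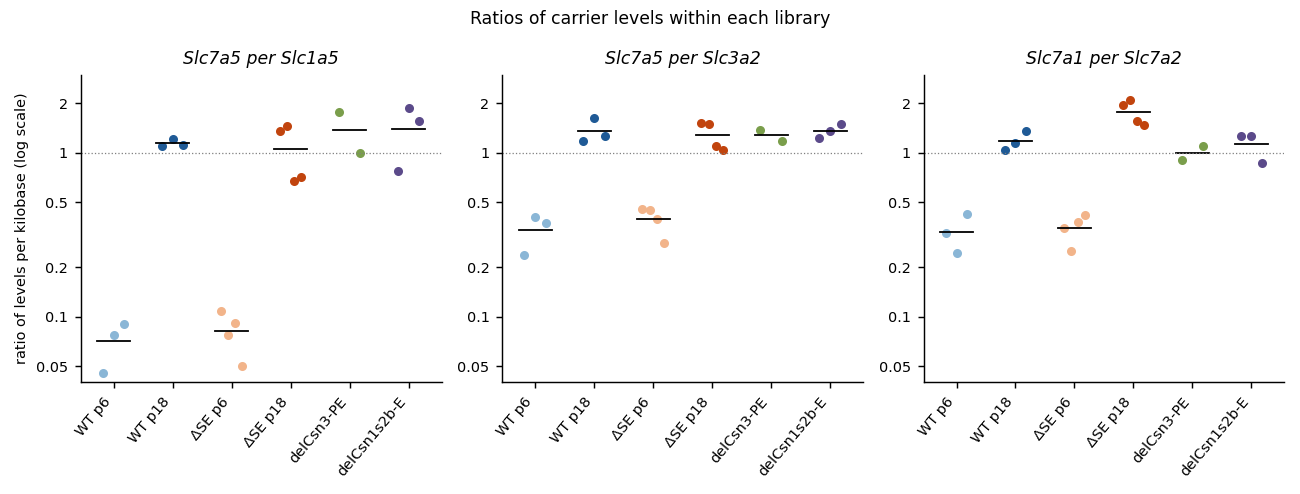
Ratios of levels per kilobase within each library on a log scale, for Slc7a5 to Slc1a5, Slc7a5 to Slc3a2 and Slc7a1 to Slc7a2, with points for libraries, black lines for group means and the dotted line at a ratio of 1. In all panels each p6 library lies below each library of the groups labelled p18.

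Slc7a1 and Slc7a2, carriers of cationic amino acids, moved in opposite directions. Slc7a1 (chr5:148327410-148399904), the widely used arginine and lysine uniporter CAT1, was at 28.1, 26.7 and 27.1 normalized CPM in WT at p6 and at 36.5, 42.2 and 36.7 at p18. Its log2 fold change was 0.52 (SE 0.17, adjusted p = 0.032), and 5 of 6 fits with 1 library left out lost the call. In ΔSE it went from 24.3, 19.9, 23.1 and 17.7 to 49.4, 53.6, 35.2 and 32.8 normalized CPM, a rise of 1.02 (SE 0.15, adjusted p = 9.7e-05).
Slc7a2, the related carrier CAT2, went the other way. It was at 95.3, 121 and 71.0 normalized CPM in WT at p6 and at 38.9, 40.4 and 29.7 at p18 (log2 fold change -1.37, SE 0.21, adjusted p = 0.00019). ΔSE tissue had 76.5, 86.5, 67.0 and 46.8 at p6 and 27.9, 28, 24.9 and 24.6 at p18 (-1.38, SE 0.18, adjusted p = 4.0e-05). No library of one stage reached the range of the other. The ratio of Slc7a1 to Slc7a2 per kilobase rose from 0.330 ± 0.0884 to 1.18 ± 0.165 in WT and from 0.350 ± 0.0701 to 1.77 ± 0.307 in ΔSE. Levels per kilobase overlapped in WT at p18, with Slc7a1 at 5.08 to 5.88 and Slc7a2 at 3.76 to 5.11 normalized CPM.
Slc7a4, a relative of these carriers whose substrate is not settled, was at 4.82, 2.17 and 5.30 normalized CPM in WT at p6 and at 19.1, 16.3 and 14.1 at p18. Its log2 fold change was 2.04 (SE 0.29, adjusted p = 9.0e-05) in WT and 2.01 (SE 0.26, adjusted p = 3.0e-05) in ΔSE. It shares its locus with P2rx6 on the opposite strand, and the strand setting of the counting is not given in the sources used here. Slc7a3, a further cationic carrier, stayed at or under 1.19 normalized CPM in all libraries.

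Among the sodium-coupled neutral carriers of the Slc38a family, Slc38a2 and Slc38a3 rose. Slc38a2 (chr15:96687392-96699730) was at 124, 101 and 97.0 normalized CPM in WT at p6 and at 160, 194 and 182 at p18. In ΔSE it was at 109, 107, 103 and 97.0 at p6 and at 185, 181, 170 and 179 at p18. The log2 fold changes were 0.76 (SE 0.12, adjusted p = 0.00024) and 0.79 (SE 0.10, adjusted p = 3.2e-05), and both calls were lost when counts were scaled to library totals.
Slc38a3, a glutamine carrier that can work in both directions, was at 7.19, 2.59 and 5.87 normalized CPM in WT at p6 and at 10.6, 18.6 and 10.8 at p18 (log2 fold change 1.39, SE 0.36, adjusted p = 0.0076). ΔSE libraries had 2.13 to 4.77 at p6 and 7.99 to 13.7 at p18 (1.71, SE 0.32, adjusted p = 0.00067). The WT call was lost without p18 replicate 2. Slc38a1, the close relative of Slc38a2, had 12.3, 38.4 and 10.9 normalized CPM at p6 and 10.1, 19.4 and 31.1 at p18 in WT, and no stage difference could be told from that spread (log2 fold change -0.00, SE 0.44).
The lysosomal carriers of the same family were not called in WT. Slc38a9, which senses arginine for mTORC1 and exports essential amino acids from lysosomes, was at 24.5, 18.5 and 18 normalized CPM at p6 and 15.2, 17.4 and 15.3 at p18 in WT (log2 fold change -0.32, SE 0.20, adjusted p = 0.24). Slc38a7, the lysosomal glutamine exporter, had 0.28 (SE 0.13, adjusted p = 0.11) in WT and rose in ΔSE from 12.6 to 14.2 at p6 to 19 to 21.5 normalized CPM at p18 (0.62, SE 0.11, adjusted p = 0.00045). Slc38a4 was called lower in ΔSE only, from 5.02 to 11.3 at p6 to 2.19 to 5.04 at p18 (-1.41, SE 0.45, adjusted p = 0.022), and 4 of the 8 fits with 1 library left out lost it. Slc38a10 was the fifth carrier per kilobase in WT at p18 and was not called in either genotype, nor was Slc38a6. Slc38a5 and Slc38a11 stayed at or under 0.419 and 1.26 normalized CPM.

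In the Slc1a family the neutral exchanger Slc1a5 and the glutamate carrier Slc1a3 fell in both genotypes, and Slc1a4 and Slc1a1, one of each kind, rose in ΔSE. Slc1a5 (chr7:16781340-16798274) was at 328, 274 and 227 normalized CPM in WT at p6 and at 81.4, 110 and 85.7 at p18. The ΔSE libraries were at 210, 277, 253 and 296 at p6 and at 111, 90.5, 118 and 102 at p18. The lowest p6 library was above the highest p18 library in both, with log2 fold changes of -1.56 (SE 0.17, adjusted p = 1.1e-05) and -1.28 (SE 0.15, adjusted p = 1.1e-05).
Slc1a4, the alanine, serine and cysteine exchanger ASCT1, had a positive log2 fold change. It was at 37.7, 8.27 and 31.2 normalized CPM in WT at p6 and at 55.5, 58.7 and 31.4 at p18 (0.94, SE 0.38, adjusted p = 0.073), with the low value in the WT p6 library that also had little casein mRNA. In ΔSE it rose from 15.0, 7.28, 10.8 and 12.1 to 33.1, 27.6, 30.2 and 27.1 (1.40, SE 0.34, adjusted p = 0.0046).
Slc1a1, the glutamate and aspartate carrier EAAC1 of epithelia, was at 4.19, 1.96 and 3.72 normalized CPM in WT at p6 and at 3.03, 4.93 and 2.66 at p18, which overlapped (0.13, SE 0.38, adjusted p = 0.83). In ΔSE it rose from 1.89 to 3.79 at p6 to 3.96 to 9.13 at p18 (1.20, SE 0.33, adjusted p = 0.0093). Slc1a3, the glutamate carrier GLAST, fell from 84.0, 58.1 and 33.7 to 29.4, 27.1 and 24.4 in WT (-1.09, SE 0.27, adjusted p = 0.0059) and from 33.8 to 58.1 at p6 to 18.7 to 27.4 at p18 in ΔSE (-0.89, SE 0.23, adjusted p = 0.0073). The remaining glutamate carriers Slc1a2, Slc1a6 and Slc1a7, best known from brain and retina, did not exceed 2.37, 0.207 and 0.632 normalized CPM. A gene without a read in a library could have had up to 3 counts, a limit of 0.0805 to 0.281 normalized CPM across the libraries that covers counting error only.

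**Figure D4:**
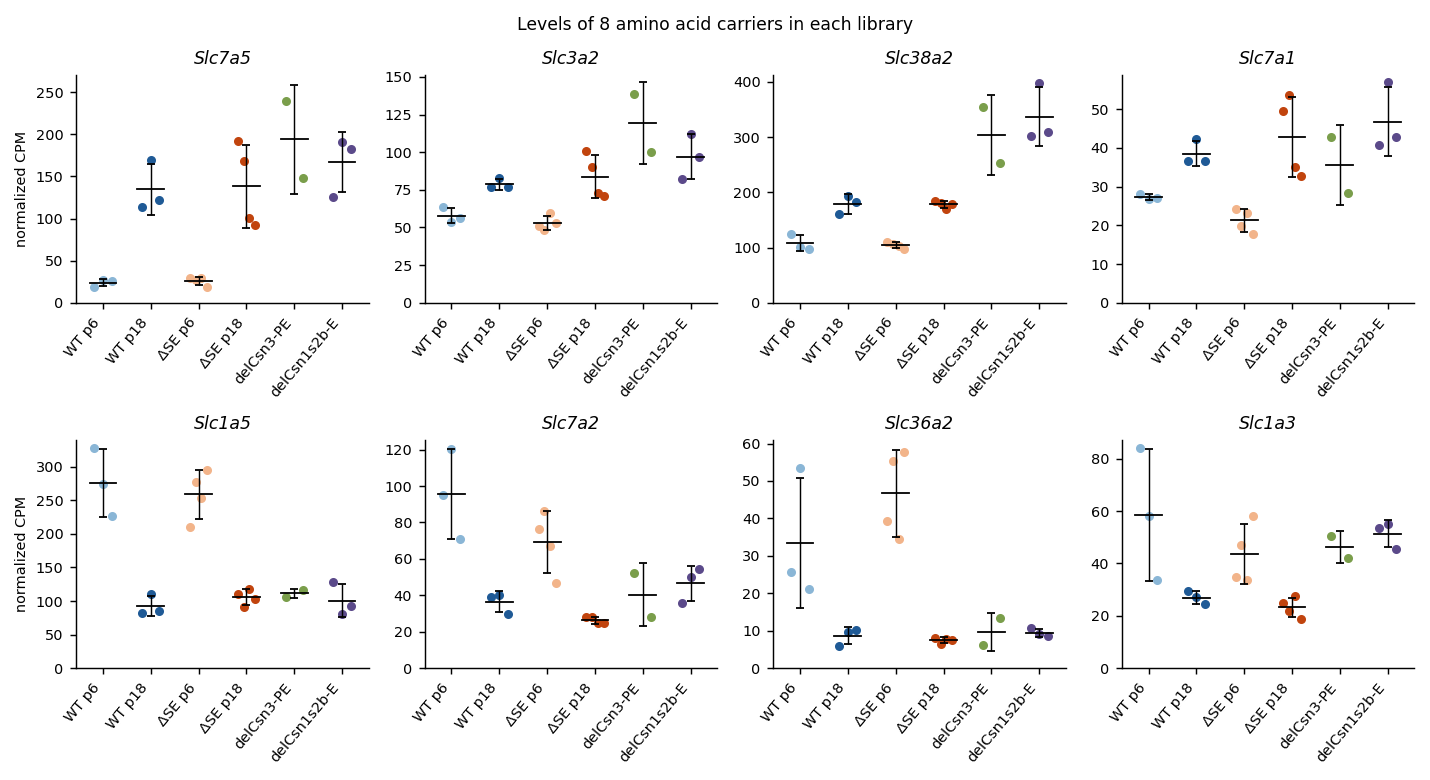
Normalized CPM of 8 carriers in each library, with points for libraries, horizontal lines for group means and bars for the SD, in WT, ΔSE and the single-enhancer lines (labelled p18). The upper 4 panels show carriers that are higher at p18 than at p6 in WT and ΔSE, and the lower 4 show carriers that are lower at p18 there.

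Of the 3 proton-coupled Slc36a carriers 2 fell in both genotypes, as did Slc43a1. Slc36a2, a glycine and proline carrier known as a surface marker of brown and beige fat cells, was at 25.8, 53.4 and 21.2 normalized CPM in WT at p6 and at 5.99, 9.67 and 10.2 at p18 (log2 fold change -1.93, SE 0.31, adjusted p = 0.00024). In ΔSE it was at 39.3, 55.4, 34.4 and 57.7 at p6 and at 8.16, 6.48, 7.77 and 7.45 at p18 (-2.63, SE 0.27, adjusted p = 4.2e-06). Slc36a1, which exports small amino acids from lysosomes, went from 16.4, 15.0 and 17.1 to 8.54, 9.15 and 10.1 in WT (-0.78, SE 0.14, adjusted p = 0.00069) and from 16.5 to 17.8 to 8.91 to 12.8 in ΔSE (-0.63, SE 0.12, adjusted p = 0.00087). Slc36a4 was not called (0.11, SE 0.25, in WT and -0.33, SE 0.21, in ΔSE).
Slc43a1, the branched-chain amino acid uniporter LAT3, fell from 18.8, 11.6 and 4.92 to 3.72, 4.87 and 5.64 normalized CPM in WT (-1.27, SE 0.38, adjusted p = 0.018), where the stages overlapped, and by 1.11 (SE 0.33, adjusted p = 0.014) in ΔSE, where they did not (9.30 to 15.4 against 3.19 to 6.95). The WT call was lost without p6 replicate 1, p18 replicate 1 or p18 replicate 2, and the ΔSE call without p18 replicate 2. Slc43a2, the related uniporter LAT4 for large neutral amino acids, was at 70.7, 25.0 and 92.6 in WT at p6 and at 73.5, 112 and 93.8 at p18 (0.59, SE 0.30, adjusted p = 0.15). In ΔSE it rose from 31.2 to 33.9 at p6 to 86.4 to 103 at p18 (1.53, SE 0.26, adjusted p = 0.00035). Slc43a3, which is now known as a carrier of nucleobases and is a member by its symbol alone, was not called.

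The markers of fat were followed beside Slc7a10 and Slc36a2. Of all genes, 12.4% were called lower and 17.2% higher at p18 in WT, and 18.3% and 17.3% in ΔSE. Of 8 white adipocyte markers 2 were called lower in WT and 5 in ΔSE at p18, 0 higher, and their sum was 1337 to 2470 normalized CPM in WT at p6, 1350 to 1504 in WT at p18, 2199 to 3928 in ΔSE at p6 and 1374 to 1972 in ΔSE at p18. Of 5 brown adipocyte markers 2 were called lower in each genotype, Ucp1 and Cox8b in WT and Dio2 and Cox8b in ΔSE. Cidea was at 3.79, 39.2 and 1.72 normalized CPM in WT at p6 and at 81.3, 48.1 and 24.2 at p18 (log2 fold change 1.79, SE 0.87, adjusted p = 0.14). The sum of the 5 markers was 7.67 to 138 and 32.5 to 86.6 in WT and 20.3 to 64.9 and 15.2 to 18.8 in ΔSE. All of these markers had reads in every group. Of 7 luminal epithelial markers 2 were called higher in WT and 7 in ΔSE. Their sums at p6 and p18 were 775 to 1089 and 955 to 1482 in WT, which overlapped. In ΔSE they were 475 to 936 and 1344 to 1448. The 8 muscle markers had a median log2 fold change of -1.11 in WT and -7.83 in ΔSE, where 8 were called lower. Fibroblast markers had sums of 569 to 4086 and 2030 to 2740 in WT and 4052 to 5581 and 1392 to 2659 in ΔSE, where 5 of 5 were called lower. The part of these tissues in the carriers' changes was not tested.
Libraries with much muscle RNA were also left out. Without ΔSE p6 replicates 2 and 4 the muscle sums were 45.9 and 112 at p6 against 8.52 to 16.8 at p18, and 13 ΔSE calls remained, 8 higher and 5 lower, in a fit that called 22.9% of all genes. Without WT p18 replicates 2 and 3 the single WT p18 library left (6.13), which is assumed to vary like the other groups, stood against p6 libraries at 1001 to 2257, so that the muscle difference was wider in this fit. It called 7 members and 11.4% of all genes, Slc7a5, Slc7a4 and Slc38a2 higher and Slc1a5, Slc7a2, Slc36a1 and Slc36a2 lower, and says nothing about muscle. Without WT p18 replicate 2 alone, 9 of the 15 WT calls remained, where 21.7% of all genes were called.

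ΔSE and WT tissue were then compared at each stage. At p18 0 of the 37 members were called by edgeR, where 0.314% of all genes were called, and DESeq2 also called 0 (2.78% of all genes). An unadjusted p under 0.05 was found for 4 members and for 12.3% of all genes. These were Slc1a1 with a log2 fold change of 0.86 (SE 0.35, adjusted p = 0.33), Slc7a4 with -0.73 (SE 0.25, adjusted p = 0.22), Slc7a2 with -0.46 (SE 0.20, adjusted p = 0.36) and Slc7a6 with -0.36 (SE 0.16, adjusted p = 0.38). Of the 6 carriers usually named for uptake, Slc1a1 thus had the widest difference at p18. For the other five the log2 difference was 0.05 (SE 0.24) for Slc7a5, 0.10 (SE 0.13) for Slc3a2, 0.01 (SE 0.11) for Slc38a2, 0.16 (SE 0.16) for Slc7a1 and 0.20 (SE 0.16) for Slc1a5. Milk protein mRNA was lower beside them. The sum over 14 milk protein genes was 92310 to 124305 normalized CPM in WT and 41208 to 80190 in ΔSE at p18, and 1 of these genes was called lower.
In a fit of the 2 groups alone, which called 4.98% of all genes, 2 of 35 members, Slc1a4 and Slc7a4, were called lower in ΔSE at p18. Slc1a4 was at 55.5, 58.7 and 31.4 normalized CPM in WT and at 33.1, 27.6, 30.2 and 27.1 in ΔSE, so that the groups overlapped. Slc7a4 was at 19.1, 16.3 and 14.1 in WT and at 11.9, 11.7, 7.29 and 8.86 in ΔSE, without overlap. Muscle markers at p18 were high in 2 of 3 WT libraries and low in all ΔSE libraries, and their part was not tested.

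At p6 0 members were called by edgeR, against 1.03% of all genes, and 10 had an unadjusted p under 0.05, as did 17.0% of all genes. DESeq2 called 2 members, Slc1a4 and Slc43a2, both lower in ΔSE, and 5.09% of all genes. Slc43a2 was at 70.7, 25.0 and 92.6 normalized CPM in WT and at 33.9, 33.2, 33.7 and 31.2 in ΔSE (log2 fold change -0.91, SE 0.28, adjusted p = 0.11 from edgeR), and Slc1a4 had -1.16 (SE 0.36, adjusted p = 0.11). WT p6 replicate 2 lay within the ΔSE range for Slc1a4 and below it for Slc43a2, and the other two WT libraries lay above it. Without that library edgeR called 6 of 36 members, Slc1a4, Slc43a2 and Slc7a4 lower and Slc36a2, Slc38a4 and Slc7a8 higher in ΔSE, and 9.97% of all genes. The WT p6 libraries kept in that fit had Csn2 at 1045 and 1297 normalized CPM, against 12.0 to 50.2 in ΔSE at p6. The part of this difference in the calls was not tested. The sum of fibroblast markers at p6 was 569 to 4086 normalized CPM in WT and 4052 to 5581 in ΔSE, with a median log2 difference of 1.10 over the 5 markers.
The difference between the stage effects of the genotypes was tested as an interaction. It called 0 members, against 0.151% of all genes, by edgeR and 0 by DESeq2 (3.27% of all genes), and 5 members had an unadjusted p under 0.05, beside 16.6% of all genes. These were Slc7a11 with an interaction of 2.07 (SE 0.96, adjusted p = 0.30), Slc1a1 with 1.07 (SE 0.50, adjusted p = 0.30), Slc43a2 with 0.94 (SE 0.39, adjusted p = 0.25), Slc7a8 with -0.77 (SE 0.27, adjusted p = 0.18) and Slc7a1 with 0.51 (SE 0.23, adjusted p = 0.28), as ΔSE minus WT. The 6 members called at p18 against p6 in ΔSE alone are therefore not shown to differ between the genotypes. Without WT p6 replicate 2 the interaction called 3 of 36 members, Slc43a2 higher and Slc36a2 and Slc7a8 lower, and 5.84% of all genes. The WT p6 libraries kept were again those with high Csn2.

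**Figure D5:**
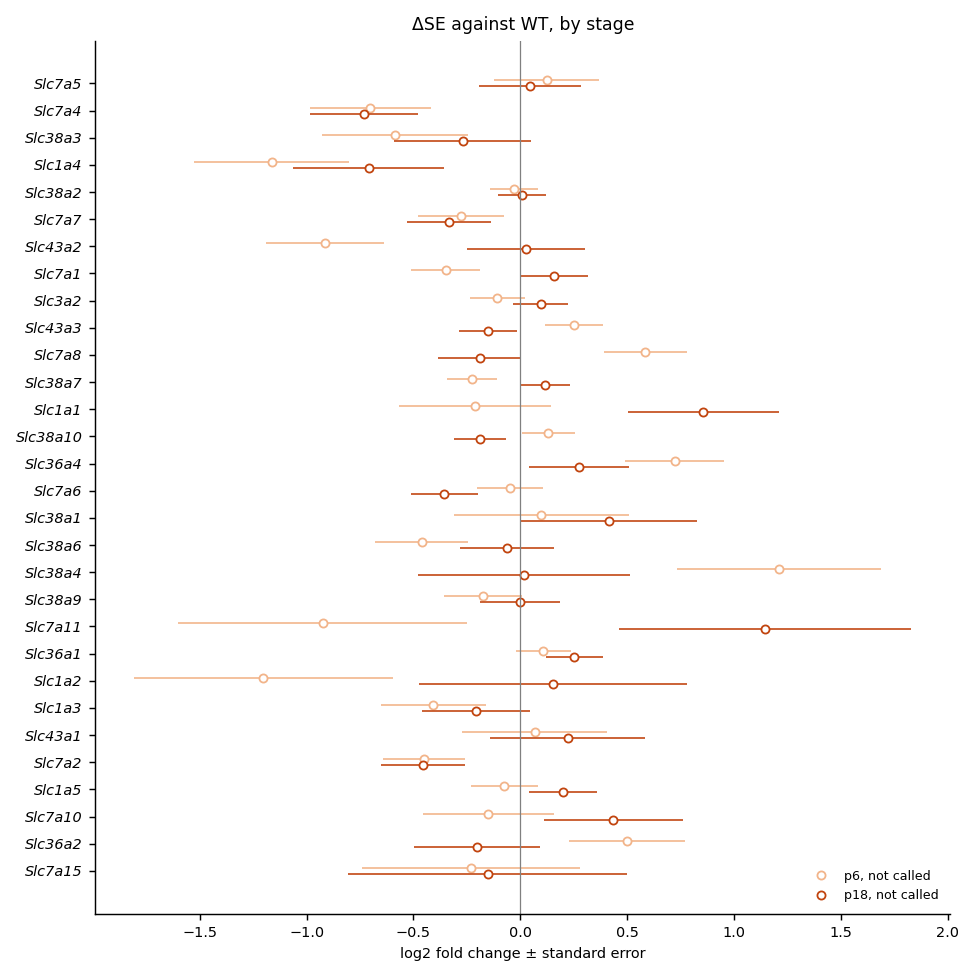
Log2 fold change of ΔSE against WT with its standard error for the 30 members with a mean of at least 1 normalized CPM, at p6 (light) and p18 (dark), with open points because no adjusted p was under 0.05. Points at p18 lie near 0 for Slc7a5, Slc38a2 and Slc3a2, and the p6 points of Slc1a4 and Slc43a2 lie to the left.

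The single-enhancer lines were set beside WT tissue at p18, with the difference between the 2 sets of libraries and their uncertain stage in mind, neither of which can be told apart from the deletion. In delCsn1s2b-E 3 of 36 members were called higher and 1 lower, where 32.3% of 17125 genes were called (17.2% higher, 15.0% lower). In delCsn3-PE 5 were called higher and 2 lower, where 25.2% were called (13.8% higher, 11.5% lower). The calls made up 11.1% of the members in the first line and 19.4% in the second. Markers of other cells moved with this comparison. The sum of 5 fibroblast markers was 2030 to 2740 normalized CPM in WT, 846 and 1075 in delCsn3-PE and 968 to 1260 in delCsn1s2b-E, with 2 markers called lower in each line. Muscle markers summed to 6.13, 969 and 1430 in WT, 5 and 32.5 in delCsn3-PE and 32.8, 15.7 and 499.8 in delCsn1s2b-E. Their part in the carriers' differences was not tested.
Slc7a11, Slc1a3 and Slc38a2 were called higher in both lines, which share the WT libraries. Slc7a11 was at 1.65, 1.43 and 1.33 normalized CPM in WT, at 5.42 and 4.86 in delCsn3-PE and at 2.69, 4.35 and 3.38 in delCsn1s2b-E. Its log2 fold change was 1.75 (SE 0.26, adjusted p = 0.0021) in the first and 1.17 (SE 0.24, adjusted p = 0.0049) in the second. In ΔSE at p18 the same gene was at 4.32, 3.10, 1.77 and 3.82, above each WT library but not called (1.15, SE 0.68, adjusted p = 0.52).
Slc1a3 was at 24.4 to 29.4 normalized CPM in WT at p18, at 50.6 and 42.0 in delCsn3-PE (0.72, SE 0.14, adjusted p = 0.0063) and at 53.4, 55.1 and 45.6 in delCsn1s2b-E (0.87, SE 0.13, adjusted p = 0.0012). Slc38a2 was at 160 to 194 in WT, at 355 and 253 in delCsn3-PE (0.71, SE 0.18, adjusted p = 0.018) and at 303, 398 and 310 in delCsn1s2b-E (0.85, SE 0.16, adjusted p = 0.0037). Per kilobase Slc38a2 led in both lines, at 65.3 ± 15.5 and 72.3 ± 11.4 normalized CPM.
In the main fit the other calls belonged to 1 line each. Slc1a1 (1.26, SE 0.31, adjusted p = 0.016) and Slc3a2 (0.54, SE 0.16, adjusted p = 0.035) were higher in delCsn3-PE, and Slc7a8 (-0.91, SE 0.23, adjusted p = 0.018) and Slc7a15 (-2.18, SE 0.70, adjusted p = 0.044) were lower. In delCsn1s2b-E Slc38a7 was lower (-0.67, SE 0.17, adjusted p = 0.012), at 11.8, 10.5 and 14.7 normalized CPM against 16.5, 19.4 and 20.6 in WT. In delCsn3-PE Slc38a7 was at 12.3 and 14.5 (-0.55). It was called there under 4 alternatives, DESeq2 among them, and differed between the lines by -0.13 (delCsn1s2b-E minus delCsn3-PE). With counts scaled to library totals, which moved the median of all genes by 0.40 in delCsn1s2b-E and 0.42 in delCsn3-PE, the calls became 11 and 9, all higher, where 31.8% and 29.8% of all genes were called higher and 5.1% and 3.66% lower. Leaving out delCsn3-PE replicate 1 gave 1 call in that line (7.81% of all genes), and leaving out WT p18 replicate 1 or 3 gave 3 (19.2% and 17.6%).
Between the lines, which belong to 1 set, 0 of 36 members were called by edgeR, against 0.181% of all genes, and 0 by DESeq2 (0.561%). An unadjusted p under 0.05 was found for 3 members, beside 5.02% of all genes. They were Slc1a1 (-0.80, SE 0.30, adjusted p = 0.83), Slc7a8 (0.61, SE 0.23, adjusted p = 0.83) and Slc7a11 (-0.58, SE 0.24, adjusted p = 0.90), as delCsn1s2b-E minus delCsn3-PE.

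Genes that use or sense the imported amino acids were counted from the same fits, where 17.2% of all genes rose and 12.4% fell in WT and 17.3% rose and 18.3% fell in ΔSE. Of 20 cytosolic aminoacyl-tRNA synthetases, which load amino acids onto their tRNAs, 16 rose in WT and 18 in ΔSE between p6 and p18, and the remaining ones were not called. Their median log2 fold change was 0.68 in WT and 0.67 in ΔSE. Qars, for glutamine, had 1.36 (adjusted p = 8.2e-06) in WT, Sars, for serine, 0.99 (adjusted p = 4.6e-05) and Iars, for isoleucine, 0.85 (adjusted p = 0.00015).
Of 20 genes of the ATF4 pathway and of amino acid synthesis 8 rose and 3 fell in WT, and 10 rose and 3 fell in ΔSE. Aldh18a1, of proline synthesis, had 1.88 (adjusted p = 7.3e-06), Asns, asparagine synthetase, 1.41 (adjusted p = 9.1e-06) and Atf4 itself 1.03 (adjusted p = 0.00019) in WT. Of 31 genes of amino acid sensing by mTORC1 8 rose and 2 fell in WT and 5 rose and 3 fell in ΔSE. Named for their small p, Sec13 had 1.54, Lamtor5 1.14 and Lamtor2 0.80 in WT (adjusted p = 8.3e-05, 0.00015 and 0.00047). The log2 fold changes of the list ran from -1.69 to 1.54 in WT, with a median of 0.15.
Of 26 carriers of amino acids or peptides from other families 2 rose and 5 fell in WT and 7 rose and 7 fell in ΔSE. Slc6a6, the taurine carrier, fell by 1.29 (adjusted p = 1.3e-05) on the log2 scale, Slc16a10, an aromatic amino acid carrier, by 1.21 (adjusted p = 0.0062), and Ctns, the lysosomal cystine exporter, rose by 0.73 (adjusted p = 0.00062). All 14 milk protein genes rose in WT and 13 in ΔSE, with Glycam1, Lpo and Xdh leading by p in WT.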

How the data were processed

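Per the labels and the methods, frozen mammary tissue gave ribosomal RNA-depleted, stranded total RNA libraries. The authors trimmed reads with Trimmomatic (version 0.36), used STAR (version 2.5.4a) for alignment to mm10 and took reads per gene from HTSeq (version 0.9.1). What the authors deposited are these raw counts, without normalization. The annotation and strand setting used for counting are not given in the sources used here.

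Counts were tested with edgeR (version 4.0.16, glmQLFit and glmQLFTest, TMM factors) in R (version 4.3.3), after genes under 10 reads over a model's libraries were dropped. One model held the 14 WT and ΔSE libraries in 4 groups (17844 genes), another 8 libraries labelled p18, of WT and both single-enhancer lines (17125 genes). Standard errors were derived from the F statistic. Alternatives were DESeq2 (version 1.42.0), other scalings and filters, 1 factor of unwanted variation, a replicate block, only the groups compared, and libraries left out. Positions and the longest coding transcript of each member, used for levels per kilobase, are from GENCODE M21 (GRCm38), and promoters from RefSeq (GRCm38.p6). Values by sample are given for up to 8 members each way of those called in WT p18 against p6, the interaction or ΔSE against WT (mean of at least 1 normalized CPM) and for 15 carriers with a textbook role in the gland, with ΔSE libraries as a range in places. Other members are given by range. Up to 3 genes of each other list, those with the smallest p in WT, are named. The members and lists were chosen with earlier results of these data known. The tests were also run on simulated counts. Replicates are independent biological samples per the methods. Summary entries that name no gene, found in the single-enhancer files only, stayed out.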

Additional observations from a re-analysis of the deposited data

Results flagged for a closer look

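One value stood apart from its group, Slc7a10 at 19.7 normalized CPM in ΔSE p18 replicate 3, the highest of 4 libraries, beside 12.5, 13.1 and 13.2 in the others. The gap to its nearest neighbour was large against the range of the group (Dixon's test at 95%). Chance alone flags about 1 in 20 groups, and 60 groups of members were tested in this way.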

How the results depend on the processing

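Of 129 counts of called members under alternatives 114 stayed within 1.5 times the reported count or, where that count was 0, at 0. The 114 thus include comparisons without a called member, for which a ratio has no meaning. Of 740 log2 fold changes of called members 607 kept their direction and their call. With 1 factor of unwanted variation estimated from the data, which can carry stage, edgeR's stage calls went to 0 members in WT and 0 in ΔSE (6 and 5 at an unadjusted p under 0.05), beside 8 and 0 of all 17844 genes (1818 and 506 at an unadjusted p under 0.05). DESeq2, fitted without this factor, called 15 and 22 members. Over all genes it called 3007 higher and 2831 lower in WT, and 3159 and 3520 in ΔSE. In edgeR's fit with this factor the log2 fold changes of p18 against p6 turned to -0.014 for Slc3a2 and -0.37 for Slc7a1 in WT. In ΔSE they turned to -1.83 for Slc1a1, -0.95 for Slc1a4, -0.0078 for Slc3a2, -0.21 for Slc7a1 and -0.23 for Slc7a7. They also turned there to 0.23 for Slc7a10, 0.40 for Slc7a15, 2.46 for Slc38a4 and 0.24 for Slc43a1. The cause was not tested. With 1 library left out at a time, the number of members called ranged from 9 to 15 in WT p18 against p6, 19 to 21 in ΔSE, 0 to 0 between ΔSE and WT at p18, 0 to 6 at p6, 0 to 3 in the interaction, 4 to 6 in delCsn1s2b-E, 1 to 7 in delCsn3-PE and 0 to 0 between these lines. Without WT p18 replicates 2 and 3 together it was 7 in WT p18 against p6 and 2 in delCsn3-PE. Without ΔSE p6 replicates 2 and 4, an alternative chosen after seeing the data, it was 13 in ΔSE p18 against p6. A fit of only the groups compared called 2 members between ΔSE and WT at p18, DESeq2 called 2 at p6, and scaling to library totals gave 11 in delCsn1s2b-E.

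Samples were not treated as paired by replicate number in the main fits. The deviations of same-numbered WT libraries at p6 and p18 correlated by 0.227, 0.0800 and 0.107 and those of other pairs of groups by -0.282 to 0.231. Differently numbered libraries were not correlated, so these values cannot settle whether replicate numbers pair the samples. The replicate block gave 2 calls in delCsn3-PE, 17 in WT p18 against p6 (9 higher, 8 lower), 21 in ΔSE and 4 in delCsn1s2b-E, and 0 elsewhere. Of all 17125 genes the same fits called 886 higher and 1077 lower in delCsn3-PE, and 2185 and 2040 in delCsn1s2b-E. Of 17844 genes they called 2940 higher and 2022 lower in WT p18 against p6, and 2893 and 3092 in ΔSE.

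Members under about 1 normalized CPM rest on few reads. Calls of Slc1a7 and Slc3a1 appeared under some alternatives only, and those of Slc7a15 rest on groups near or below this level.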
